A study of Mus musculus with 5 samples.

Results

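The genes described here encode the chains of collagens, laminins and integrins, with the nidogens and perlecan, in mouse embryonic stem cells transfected with siRNA against Dhx30 or Tfam. They were chosen by gene name alone: 47 of the 12930 deposited gene names began with COL and a digit, with LAMA, LAMB or LAMC and a digit, or with ITGA, ITGB, NID or HSPG2. Of these, 44 name a chain of the family and 3 (Col4a3bp, Itgb1bp1 and Itgb3bp) name a different protein that shares the prefix. The 44 chains were 12 basement membrane genes (collagen IV, laminins, nidogens, perlecan), 16 other collagens and 16 integrins. The GENCODE M21 annotation holds 85 protein-coding genes of these names, and the other 41 were not analysed here.

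All groups were OG2 mouse embryonic stem cells, whose strain label names CBA/CaJxC57BL/6J and 129Sv/Jae, grown on plates coated with gelatin, a denatured collagen. Every group spent 24 h in a medium with LIF, PD0325901 and CHIR99021, which holds the naive state, and then 36 h in a differentiation medium with bFGF and Activin A, with siRNA used at 50 nM at the change of medium. The groups were siDhx30 (2 libraries), siTfam (2 libraries) and a negative control, NC (1 library); the labels do not say what the NC cells were given in place of a targeting siRNA. Dhx30 encodes an RNA helicase and Tfam the packaging and transcription factor of mitochondrial DNA. The deposited table gives, per gene, 1 log2 ratio for each siRNA library, read here as against NC. No read count or level is given, so the depth behind a ratio is unknown, no counting interval can be given, and the cells' identity cannot be checked on the level of a marker. Whether the replicates of a group came from separate cultures is not said in the labels, so p-values measure only the spread between these libraries.

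Basement membranes are thin sheets under epithelia, in which networks of collagen IV and laminin are joined by nidogen and the heparan sulfate proteoglycan perlecan. Each laminin is a trimer of an alpha, a beta and a gamma chain, and each integrin is a pair of an alpha and a beta chain that spans the cell membrane and binds matrix outside the cell and the actin cytoskeleton inside it. In the early embryo the primitive endoderm and the epiblast lay down such a membrane between them, and integrins that contain Itgb1 bind it. Fibrillar collagens, in contrast, are mainly products of mesenchymal cells.

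The column headings do not state which library is the numerator. Of the 12930 genes, 842 lacked a value in at least 1 library, and all 1574 values that these genes did have were negative as deposited. The reading assumes a minimum on reads that either library of a ratio can meet, which the processing notes do not state. Such a minimum drops a gene from a library's column and keeps it in another's only where NC is low and the kept library is high. On that assumption the deposited ratios were read as NC over siRNA and the sign was turned. Every direction below is siRNA over NC and rests on that reading. With it, Dhx30 lay at -0.40 and -0.20 in the siDhx30 libraries and Tfam at -0.28 and -0.02 in the siTfam libraries, and neither passed the test (limma adjusted p = 0.998 and 0.987). Genes with a missing value lay above NC wherever they had a value, so the 12088 complete genes that were tested leave out increases more than decreases.

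No gene of the table passed in any comparison, and so none of the 41 complete chains did. With limma's moderated test and Benjamini-Hochberg adjustment over 12088 genes, 0 genes had an adjusted p under 0.05 in siDhx30 against NC, in siTfam against NC or in siDhx30 against siTfam (0% called in each). At an unadjusted p under 0.05 the counts were 609, 739 and 337 of 12088. By direction, higher and lower, these were 2.56% and 2.47%, 3.04% and 3.08%, and 1.29% and 1.50% of all genes. The adjusted p of the 41 chains ran from 0.987 upward in siDhx30 and from 0.562 upward in siTfam, and it was 0.999 for all of them between the siRNAs. The values below are therefore descriptions of 5 libraries. In RNA of whole cultures, fewer cells of a kind and less RNA per cell cannot be told apart. A gene with an unusual level in the single NC library would be displaced alike in all 4 ratios, which cannot be told apart from an effect shared by both siRNAs.

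Short sequences at the gene starts are shown for the genes with the lowest ratios among the basement membrane genes and the integrins, with their partners. Col4a1 and Col4a2, whose products wind together into collagen IV, lie head to head on GRCm38 chromosome 8 (Col4a1 11198423 to 11312826 on the minus strand, Col4a2 11312805 to 11449287 on the plus strand), and their annotated first exons overlap by 22 bases. Itgb8 (chromosome 12, 119158022 to 119238802, minus strand) and Itgav (chromosome 2, 83724397 to 83806916, plus strand) encode the chains of an integrin that frees TGF-beta from its latent complex. In the stretches below, from RefSeq on GRCm38.p6, capitals mark a GC box (GGGCGG) or a CCAAT box (CCAAT), searched on both strands. GENCODE annotates all 30 bases of the Itgb8 stretch and 25 of the 30 of the Itgav stretch as untranslated exon of these genes.
Col4a1 and Col4a2, shared by both first exons, chr8:11312805-11312826, plus strand: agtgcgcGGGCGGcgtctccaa
Itgb8, chr12:119238385-119238414, minus strand: tctcctctcccgCCAATcggaacgctgccg
Itgav, chr2:83724392-83724421, plus strand: cctctttcggcgGGGCGGcccggcctggcc

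RefSeq windows of 300 bases around the start were found for 31 of the 44 chains, 33 windows in all. A GC box was found in 23 of these 33 windows (69.7%) and in 35.7% of all 32851 windows. The CCAAT box was found in 12 of 33 (36.4%, against 37.4% of all), TATAAA in 3 (9.09%, against 13.6%) and TGANTCA, the letters of an AP-1 site, in 2 (6.06%, against 7.81%). The 32851 windows were not limited to genes of the deposited table, whereas the chains were. Base composition differs between promoters and was not matched, and a match of letters is not a site in use.

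Collagen IV, the network-forming collagen of basement membranes, had its 2 measured chains at different ratios. Col4a2 lay at -0.79 and -1.07 with siDhx30 and at -1.05 and -2.21 with siTfam, below NC in every siRNA library. Col4a1 lay at -0.19 and 0.23 with siDhx30 and at -0.39 and -0.37 with siTfam, closer to NC than Col4a2 in each library. The mean ratio of Col4a2 was 52.5% of NC in siDhx30 and 32.2% in siTfam, with log2 means of -0.93 and -1.63 (limma SE 0.55 for each, n = 2, adjusted p = 0.998 and 0.790). The 95% interval of the siTfam value, before adjustment, ran from -3.18 to -0.09, and it was the only interval among the basement membrane genes in either comparison with NC that excluded 0. Within a library, where NC cancels, Col4a2 was below Col4a1 by a log2 difference of -0.60 and -1.30 in siDhx30 and -0.66 and -1.84 in siTfam. Both genes share the 22 bases printed above, so a small part of the reads could belong to either.

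Laminin alpha chains, which carry the receptor-binding end of the trimer, gave scattered values. Lama1, the alpha chain of the embryo's first laminin, lay at 0.03 and -0.44 with siDhx30 and at -0.44 and -0.96 with siTfam. Lama5, the alpha chain of the laminin used to culture pluripotent cells, lay at -0.26 and 0.48, and at -0.20 and -0.01. Lama4, best known from blood vessel walls, lay at 0.13 and 0.45 with siDhx30 and at -0.26 and -2.02 with siTfam. The siTfam value of Lama4 was -0.26 without replicate 2. The libraries of siTfam were 1.76 apart on the log2 scale, the widest gap between replicates of any basement membrane gene.

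The laminin beta chains and Lamc1 lay between -0.30 and 0.27. Lamb1 lay at 0.11 and 0.01 with siDhx30 and at -0.18 and -0.09 with siTfam, and Lamb2 at -0.30 and -0.14, and -0.25 and -0.00048. Lamc1, the gamma chain of most laminins, lay at 0.27 and 0.01, and at 0.20 and -0.24.

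Of the linkers of the network, Nid1 alone was above NC in every library. Nid1, a nidogen that joins laminin to collagen IV, lay at 0.48 and 1.68 with siDhx30 and at 0.63 and 0.08 with siTfam, above NC in each library but with a siDhx30 gap of 1.21. Nid2, the other nidogen, lay at -0.03 and 0.49, and at 0.12 and -0.01. Of the exon bases of Nid2 8.45% overlap Rtraf on the opposite strand. Hspg2, which encodes perlecan, lay at -0.19 and 0.34 with siDhx30 and at -0.21 and 0.29 with siTfam. For Hspg2 both replicates numbered 1 were below NC and both numbered 2 above it, so the spread between replicates exceeded any difference between the siRNAs.

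**Figure D1:**
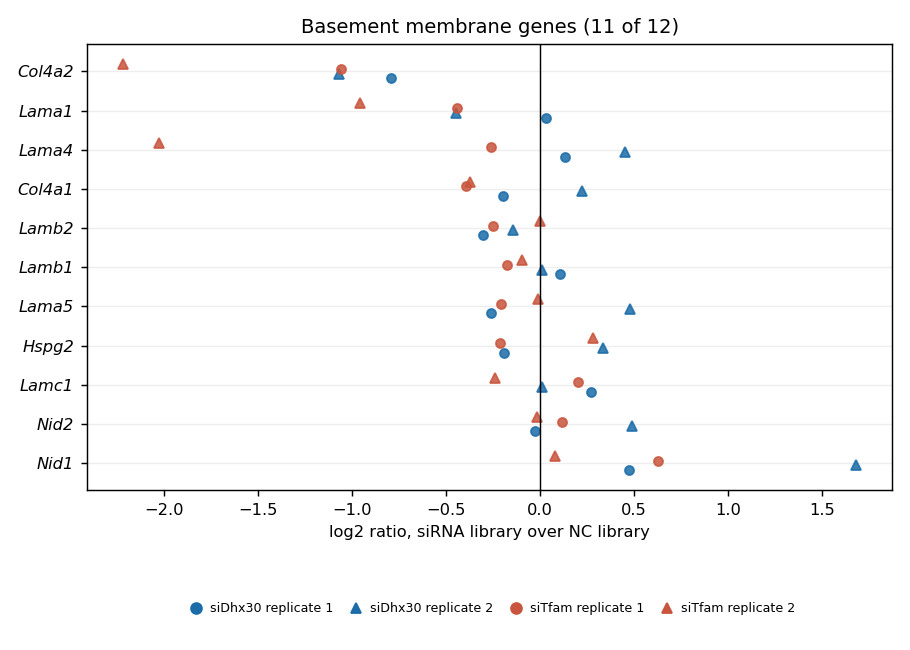
Log2 ratio of each siRNA library over NC (x axis) for 11 of the 12 basement membrane genes (rows), with siDhx30 in blue and siTfam in red, circles for replicate 1 and triangles for replicate 2. Col4a2 lies left of 0 in every library, from -0.79 to -2.21, and Nid1 right of 0 in every library, from 0.083 to 1.68.

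As a group the 12 basement membrane genes, all of them complete, had a median of 0.09 in siDhx30 against -0.01 over all genes, and of -0.12 in siTfam against -0.02 over all genes. Both siDhx30 libraries were above NC for 5 of 12 genes and below it for 2, where 32.1% and 34.9% of all genes were. Both siTfam libraries were above NC for 2 and below it for 7, where 32.0% and 34.4% of all genes were. Taken alone, siTfam replicate 1 had a median of -0.21 and replicate 2 of -0.05. Transcript length and GC content moved with the ratios of some libraries: across 9257 protein-coding genes the Spearman correlation with length was -0.18 in siTfam replicate 2 and 0.18 in siDhx30 replicate 1, and with GC content it was -0.24 in siTfam replicate 1 and -0.33 in siDhx30 replicate 1. The longest transcripts of the basement membrane genes had a median length of 6270.5 bases, against 3105 over all genes. With both trends removed the siTfam median went from -0.12 to 0.05, above NC, and the siDhx30 median from 0.09 to 0.10.

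Markers of the endoderm that secretes such membranes could be set beside these values in part. Of 19 listed markers of primitive, visceral or parietal endoderm that are not themselves chains, 6 were found and 4 were complete, and Gata4, Sox17, Sox7, Pdgfra and Foxa2 were not among them. Dab2, an endocytic adaptor of that lineage, lay at -1.04 and -0.02 with siDhx30 and at -1.62 and -1.30 with siTfam. Lrp2, an endocytic receptor, lay at 0.98 and 0.24, and at 0.76 and -0.04, and Sparc, a matrix protein that binds collagen IV, at -0.21 and -0.11, and -0.15 and -0.29. Apoe lay at -0.44 and -0.32, and at -0.12 and 0.01. Gata6 had a value in siDhx30 replicate 2 alone (1.58) and Srgn in siTfam replicate 1 alone (1.45). Of the 4 complete markers, both siTfam libraries were below NC for 2 (50%) and above it for 0, against 34.4% and 32.0% of all genes. Both siDhx30 libraries were below NC for 3 (75%) and above it for 1 (25%), against 34.9% and 32.1% of all genes. The part of endoderm cells in the collagen IV and laminin values was not tested.

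Among the other collagens 14 of 16 were complete. The fibrillar collagens, which form the cable-like fibres of connective tissue and cartilage, had 6 complete chains, which lay on both sides of NC. Col5a2, a chain of the collagen that starts fibrils, lay at -0.83 and -1.76 with siDhx30 and at -0.12 and -1.02 with siTfam, below NC in every library. Col11a2, a cartilage fibril chain, lay at -0.15 and -1.22, and at -0.97 and -2.24, also below NC in every library. Col1a2, a chain of collagen I, lay at -0.87 and -0.62 with siDhx30 and at -0.73 and 0.08 with siTfam, so that only siTfam replicate 2 was not below NC. The means were 40.7% of NC for Col5a2 in siDhx30 (log2 -1.30, limma SE 0.59, n = 2, adjusted p = 0.998) and 32.9% for Col11a2 in siTfam (log2 -1.60, SE 0.75, n = 2, adjusted p = 0.889). Col2a1, the main cartilage collagen, was above NC in every library, between 0.14 and 0.40. Col27a1 lay at -0.43 and -0.06 with siDhx30 and at -1.005 and 0.32 with siTfam, and Col5a3 at -0.20 and 0.90, and 0.53 and -0.17.

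Fibroblast markers lay on both sides of NC beside the fibrillar chains. Of 13 listed fibroblast or feeder markers that are not chains 5 were found, all complete, with a median of -0.02 in siDhx30 and 0.04 in siTfam. The intermediate filament gene Vim lay at 0.40 and 0.13, and at 0.52 and 0.54, whereas the small proteoglycan gene Dcn lay at -0.23 and -0.07, and at -0.67 and -0.38. Thy1 lay at 0.63 and 0.75, and at 0.79 and -0.15, and Fbn1, which encodes fibrillin, at 0.25 and -1.42, and -0.21 and 0.04. The part of fibroblasts in the fibrillar collagen values was not tested.

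Collagens outside the fibrils spread to both sides. Col26a1, a collagen first found in testis and ovary, was above NC in both siDhx30 libraries at close values, 0.73 and 0.85, and lay at -0.01 and 0.53 in siTfam. Col9a3, a chain of the collagen that coats cartilage fibrils, was above NC in every library, at 0.28 and 0.80 and at 0.69 and 0.57. Its partner Col9a2 lay at -1.42 and -0.07 with siDhx30 and at -0.46 and 1.48 with siTfam, the widest gap between siTfam replicates of any chain. Col7a1, the collagen of the fibrils that anchor epidermis, lay at -0.83 and -0.84 in siDhx30, but at -1.53 and 0.06 in siTfam. The collagen VI chains Col6a4 and Col6a5 lay apart in siTfam, with Col6a4 at 0.21 and 0.85 and Col6a5 at -0.17 and -0.86, while in siDhx30 both were above NC (0.03 and 0.13, and 0.22 and 0.43). The membrane-spanning collagens Col13a1 and Col17a1 had values on both sides of NC, between -0.69 and 0.68. Of the exon bases of Col9a3 6.07% overlap Tcfl5 on the opposite strand, and the use of strand in counting is not given in the sources used here.

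**Figure D2:**
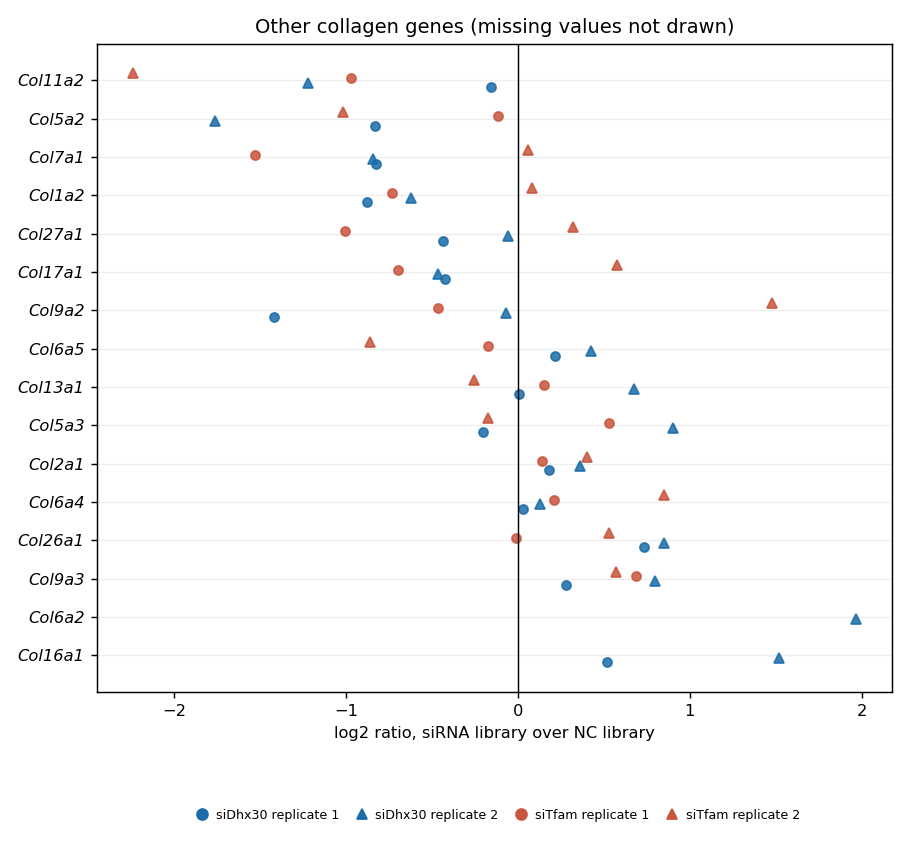
Log2 ratio of each siRNA library over NC (x axis) for the 16 other collagen genes (rows), with siDhx30 in blue and siTfam in red, circles for replicate 1 and triangles for replicate 2. Col5a2 and Col11a2 lie left of 0 in every library, and Col9a2 spans from -1.42 to 1.48.

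The 2 collagens with missing values were above NC wherever they had one. Col16a1, a collagen associated with fibril surfaces, had values of 0.52 and 1.52 in siDhx30 and none in siTfam, and Col6a2, a collagen VI chain, had a value of 1.97 in siDhx30 replicate 2 alone. As a group, the 14 complete other collagens had a median of -0.08 in siDhx30 and -0.05 in siTfam. Both siDhx30 libraries were above NC for 6 and below it for 7, so 1 gene of 14 had its siDhx30 replicates on different sides. In siTfam 3 were above in both and 3 below in both, leaving 8 genes with their replicates on different sides. The shares above and below in both were 42.9% and 50% in siDhx30, against 32.1% and 34.9% of all genes. In siTfam they were 21.4% and 21.4%, against 32.0% and 34.4% of all genes. Taken alone, siTfam replicate 1 had a median of -0.15 and replicate 2 of 0.20, on opposite sides of NC. The siDhx30 median changed sign too, from -0.08 to 0.17, when Col16a1 and Col6a2 were added with the mean of the values they have. Every gene with a missing value lay above NC where it had one, so this addition could not lower the median. The change of sign is therefore no result about the collagens.

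Among the integrins, Itgb8 had the lowest mean of the 41 complete chains in each siRNA. Itgb8 lay at -1.24 and -2.08 with siDhx30 and at -2.83 and -3.77 with siTfam. Every siRNA library was below NC by more than 1 on the log2 scale, and both siTfam libraries were below both siDhx30 libraries. The mean was 31.7% of NC in siDhx30 (log2 -1.66, 95% interval -3.27 to -0.045) and 10.2% in siTfam (log2 -3.30, interval -4.91 to -1.69), with a limma SE of 0.58 for each (n = 2). The adjusted p was 0.987 and 0.562. Ranked from the lowest mean of 12088 genes, Itgb8 came at place 118 in siDhx30 and 12 in siTfam. Without siTfam replicate 2 the siTfam value was -2.83, and without siDhx30 replicate 2 the siDhx30 value was -1.24.

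Itgav, the alpha chain that pairs with Itgb8, was also below NC in every library, by less: it lay at -0.54 and -0.34 with siDhx30 and at -0.38 and -0.77 with siTfam. The mean was 73.8% of NC in siDhx30 and 67.3% in siTfam (log2 -0.44 and -0.57, limma SE 0.26, n = 2, adjusted p = 0.998 and 0.881). The other beta chains found here that can pair with Itgav (Itgb1, Itgb3 and Itgb5) were not below NC throughout. Itgb6 was not found among the deposited gene names. Itgb3, the beta chain of the vitronectin receptor, was above NC in every library, at 0.12 and 0.51 with siDhx30 and at 0.26 and 1.23 with siTfam. Itgb5, another vitronectin-binding chain, lay between -0.28 and 0.16. Of the exon bases of Itgav 5.90% overlap a non-coding transcript on the opposite strand, Gm13684.

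Integrin chains that bind laminin and collagen lay on both sides of NC. Itga6, the laminin-binding chain abundant on embryonic stem cells, lay between -0.05 and 0.09 in the 4 libraries. Itgb1, the beta chain shared by most matrix receptors, lay at -0.38 and 0.62 with siDhx30 and at -0.36 and -0.30 with siTfam. Itgb4, the partner of Itga6 in hemidesmosomes, was above NC in every library, at 0.46 and 0.47 with siDhx30 and at 0.41 and 1.67 with siTfam. Of the exon bases of Itgb4 7.66% overlap a non-coding transcript on the opposite strand, B230344G16Rik. Itga3, a second laminin-binding chain, lay between -0.47 and 0.09, and Itga5, the fibronectin-binding chain, between -0.11 and 0.27. Itga1, a collagen-binding chain, was below NC in every library, at -0.45 and -0.44 with siDhx30 and at -0.41 and -0.09 with siTfam. Itga10, a further collagen-binding chain known from cartilage, was above NC in every library, at 1.25 and 0.11 and at 1.22 and 1.47, but 33.5% of its exon bases are shared with the gene model Gm42957 on the same strand, so its reads are uncertain.

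Integrins best known from blood cells also lay above NC, with 1 library apart. Itga2b, the platelet fibrinogen receptor chain that pairs with Itgb3, was above NC in every library, at 0.82 and 0.60 with siDhx30 and at 0.50 and 1.64 with siTfam. Itgae, the chain that binds E-cadherin, was above NC in every library, at 0.24 and 0.56, and at 0.78 and 0.09. Itgb7, which pairs with Itgae, lay at 0.41 and -2.98 with siDhx30 and at 0.70 and 0.76 with siTfam. The siDhx30 replicates of Itgb7 were 3.38 apart, the widest gap of any chain, so its siDhx30 mean of -1.29 (limma SE 1.49, n = 2) was smaller than its error. Of 6 listed endothelial and blood markers 2 were found: the leukocyte gene Ptprc lay at -0.13, -0.43, 0.33 and -0.14 and Pecam1 at 0.02, -0.11, 0.16 and 0.17, and the part of blood cells in the Itga2b and Itgae values was not tested. Itga9 lay between -0.08 and 0.39 apart from -1.42 in siTfam replicate 2, and Itga8, with missing values, was at 0.44 in siTfam replicate 1 alone.

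**Figure D3:**
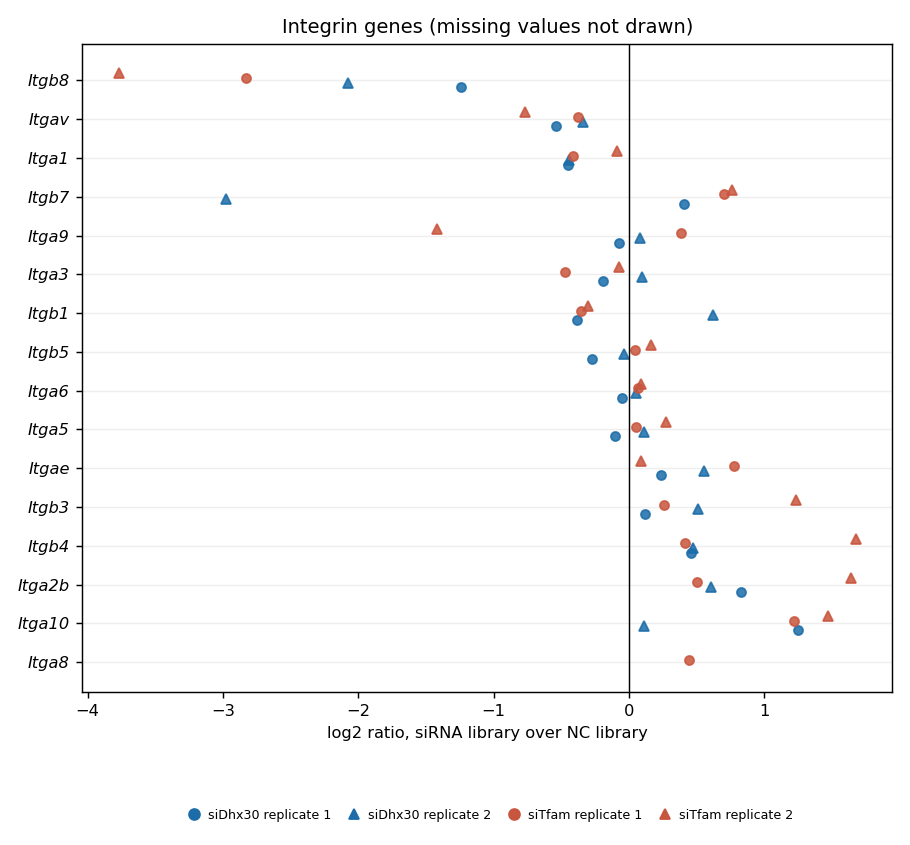
Log2 ratio of each siRNA library over NC (x axis) for the 16 integrin genes (rows), with siDhx30 in blue and siTfam in red, circles for replicate 1 and triangles for replicate 2. Itgb8 lies from -1.24 to -3.77 with siTfam lowest, Itgav lies left of 0 by less, and siDhx30 replicate 2 of Itgb7 stands alone at -2.98.

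The 15 complete integrins had a median of 0.0040 in siDhx30 and 0.10 in siTfam. Both siDhx30 libraries were above NC for 5 (33.3%) and below it for 4 (26.7%), against 32.1% and 34.9% of all genes. Both siTfam libraries were above NC for 9 of 15 (60%) and below it for 5 (33.3%), against 32.0% and 34.4% of all genes. Only Itga9 had its siTfam replicates on different sides. Taken alone, siTfam replicate 1 had a median of 0.066 and replicate 2 of 0.092, and with length and GC trends removed it was 0.20. Before adjustment, the siDhx30 interval excluded 0 for 1 of 41 chains, Itgb8, below NC, and for 0 above it, where 2.47% and 2.56% of all genes had such an interval. The siTfam interval did so for 2 of 41, Itgb8 and Col4a2, both below NC, and for 0 above it, where 3.08% and 3.04% of all genes did.

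The chains scattered more than the average gene. A ratio beyond 1 on the log2 scale in either direction was found for 4 of 41 chains in siDhx30 replicate 1, 6 in siDhx30 replicate 2, 6 in siTfam replicate 1 and 12 in siTfam replicate 2, which is 9.76%, 14.6%, 14.6% and 29.3%. Over all genes the shares were 7.02%, 7.26%, 6.68% and 9.43%. The gap between replicates was wider as well: its median was 0.32 in siDhx30 and 0.52 in siTfam for the chains, against 0.23 and 0.24 over all genes. Whether low read counts accompany these gaps could not be measured from ratios.

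**Figure D4:**
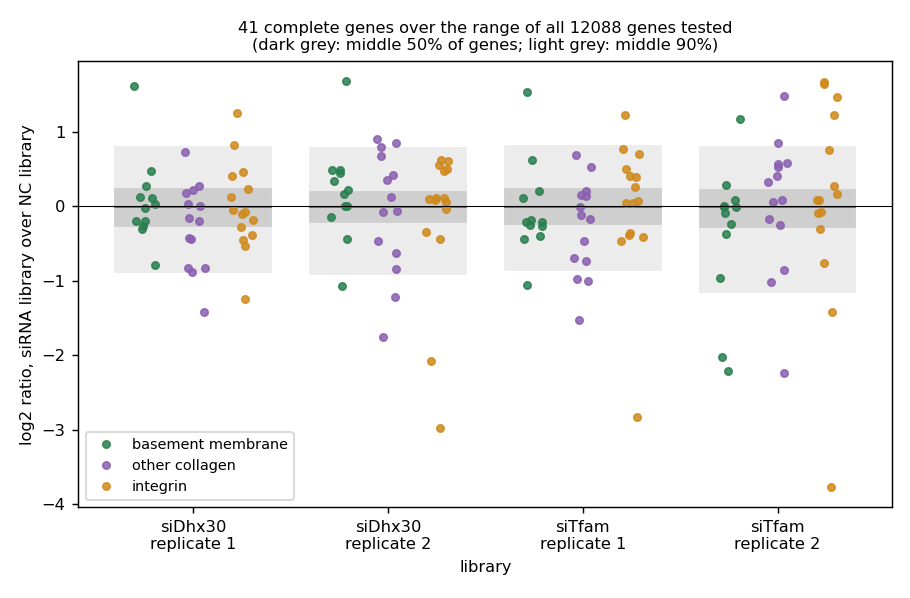
Log2 ratio over NC (y axis) of the 41 complete chains in each siRNA library (x axis), as unnamed points coloured by group, over grey bands for the middle 50% and 90% of all 12088 genes and a line at their median. In siTfam replicate 2, 12 of the 41 chains exceed 1 in either direction, and in siDhx30 replicate 1, 4 do. Of all genes, 9.43% and 7.02% do so in these libraries.

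The direct comparison of the siRNAs cancels NC and has 2 libraries on each side. Basement membrane genes were mostly higher in siDhx30 than in siTfam: 10 of 12 differences were positive, where 6015 of all 12088 genes were. Their median was 0.21, against -0.0015 over all genes, and 0 of the 12 had an interval that excluded 0. Both siDhx30 libraries were above both siTfam libraries for 3 of the 12, Col4a1, Lama4 and Lamb1, and below them for 0, where 14.7% and 14.3% of all genes were. The differences were 0.40 for Col4a1 (95% interval -0.17 to 0.97), 1.44 for Lama4 (-0.40 to 3.28) and 0.19 for Lamb1 (-0.22 to 0.61). All 3 intervals included 0. The median ran from 0.22 to 0.37 when 1 siRNA library was left out, and was 0.14 with length and GC trends removed.

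Itgb8 had the largest positive difference of the chains. It was 1.64 higher in siDhx30 than in siTfam (limma SE 0.47, 95% interval 0.32 to 2.96, n = 2 each, adjusted p = 0.999). Col6a5, at 0.84 (interval 0.02 to 1.66), was the other chain whose interval, before adjustment, excluded 0, and in it too the siRNAs did not overlap. Over all genes 1.29% had such an interval above 0 and 1.50% below it. The 15 integrins had a median difference of -0.16. Both siDhx30 libraries were below both siTfam libraries for 4 of 15 (Itga1, Itga6, Itgb5 and Itgb7) and above them for Itgb8 alone. These are 26.7% and 6.67% of the integrins, against 14.3% and 14.7% of all genes. Leaving out siTfam replicate 1 gave an integrin median of -0.27, and leaving out replicate 2 gave -0.045. Among the other collagens Col26a1 and Col6a5 did not overlap with siDhx30 higher, and Col6a4 with siDhx30 lower. These are 14.3% and 7.14% of the 14 complete other collagens, against 14.7% and 14.3% of all genes. The other collagens had a median difference of -0.05, between -0.21 and 0.16 with 1 library left out. For 4 of 41 chains both siDhx30 libraries lay on one side of NC and both siTfam libraries on the other, where 4.89% of all genes did so.

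**Figure D5:**
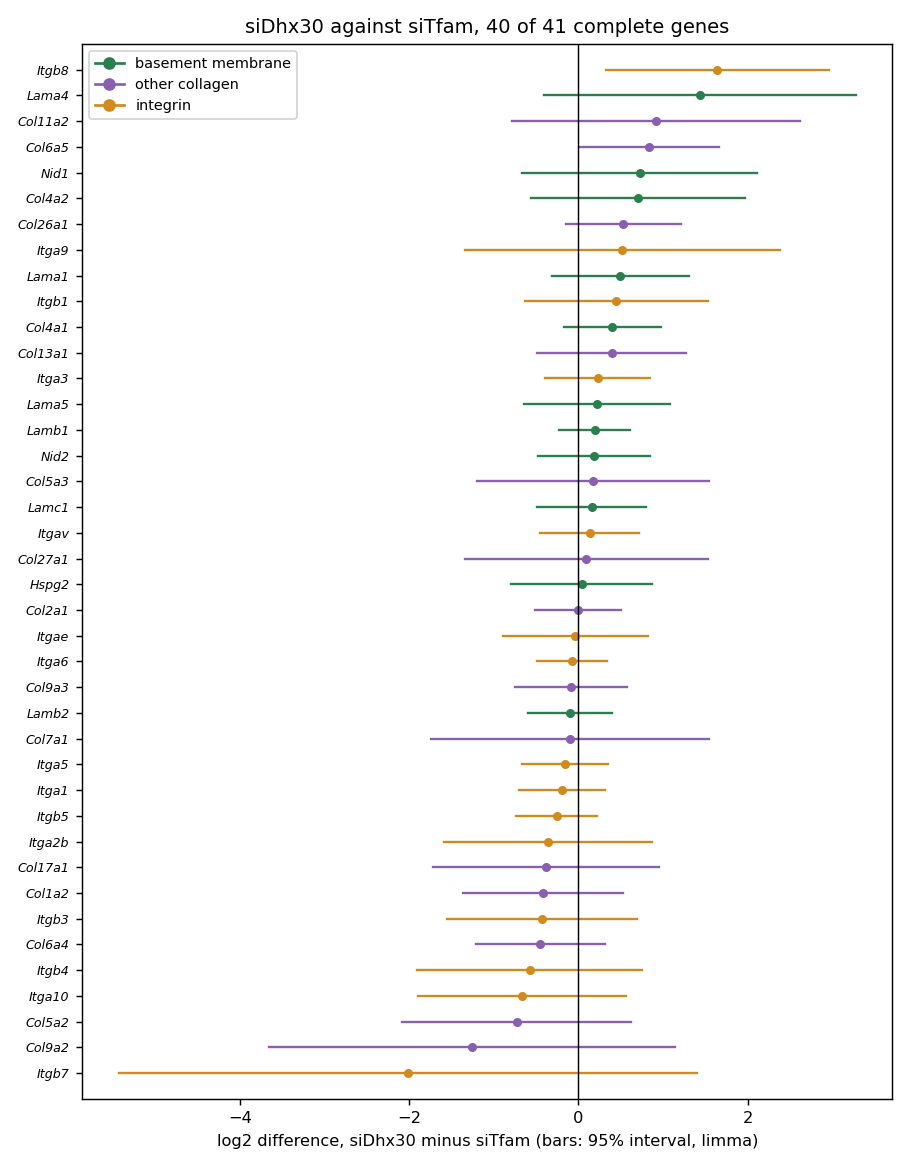
Difference of the siDhx30 and siTfam means (x axis, log2, siDhx30 minus siTfam) for 40 of the 41 complete chains (rows), with bars for the 95% interval of limma before adjustment and colours for the group. The bars of Itgb8 (1.64) and Col6a5 (0.84) do not cross 0, and the widest bar is that of Itgb7.

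The enzymes and chaperones that make and crosslink collagen were measured for 22 of 36 listed genes, all complete. None passed the test. Both siDhx30 libraries were below NC for 11 of 22 (50%) and above it for 4 (18.2%), against 34.9% and 32.1% of all genes. Both siTfam libraries were below for 8 (36.4%) and above for 5 (22.7%), against 34.4% and 32.0% of all genes. The medians were -0.06 in siDhx30 and -0.08 in siTfam. The lowest were Crtap, part of the prolyl 3-hydroxylation complex, at -0.80 and -0.75 in siDhx30 and -0.62 and -0.56 in siTfam, and Tmem131, which aids collagen secretion, at -0.56 and -0.39, and -0.66 and -0.97. P3h3 lay at -0.79 and -0.33, and at -0.76 and -0.22, and the lysyl hydroxylase gene Plod1 at -0.63 and -0.28, and -0.55 and -0.49. These 4 genes were below NC in every library, with gaps between replicates from 0.05 to 0.54.

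Other matrix and basement membrane proteins, 20 complete of 34 listed, had medians of -0.14 in siDhx30 and -0.15 in siTfam. In siDhx30 both libraries were below NC for 9 of 20 (45%) and above it for 5 (25%), against 34.9% and 32.1% of all genes. In siTfam both were below for 9 (45%) and above for 3 (15%), against 34.4% and 32.0% of all genes. Fras1, a basement membrane protein at the skin border, lay at -1.32 and -0.13, and at -1.01 and -1.49. Matn2 lay at -0.22 and -0.26 with siDhx30 and at -0.06 and -2.00 with siTfam, and Tinagl1 at -1.18 and 0.11, and -0.34 and -0.91. Npnt, a ligand of integrins, lay on the other side, at 0.33 and 0.75, and at 0.59 and -0.11. None of the 20 passed.

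The adhesion complex that links integrins to actin was measured for 34 complete of 46 listed genes, none of which passed. Both siDhx30 libraries were above NC for 14 (41.2%) and below it for 12 (35.3%), against 32.1% and 34.9% of all genes. Both siTfam libraries were above for 6 (17.6%) and below for 15 (44.1%), against 32.0% and 34.4% of all genes. The medians were -0.02 in siDhx30 and -0.07 in siTfam. Pxn, which encodes the scaffold paxillin, was below NC in every library, at -0.57 and -0.38, and at -0.61 and -0.58. The paxillin partner Git1 lay at -0.38 and -0.41, and at -0.50 and -0.29, and Krit1 at -0.29 and -0.46, and -0.39 and -0.37. In these 3 genes the replicates were at most 0.21 apart. Median gaps in siDhx30 and siTfam were 0.24 and 0.39 for the integrin chains, and 0.23 and 0.24 over all genes.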

How the data were processed

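RNA of 5 libraries (2 siDhx30, 2 siTfam, 1 NC) was sequenced as read pairs after DNase treatment, fragmentation and template-switching cDNA synthesis, per the labels' protocols. The build GRCm38 and the tools HISAT2, featureCounts, bcl2fastq and DESeq2 are listed, without settings, in the submitters' processing notes. The authors deposited log2 fold values, 1 column per siRNA library, per the file headers; no value column was left unused. The sign was turned to siRNA over NC. Depth per library is not given in the sources used here.

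Of 12930 gene names, 12660 matched a symbol of GENCODE M21. The 12088 complete genes were fitted with limma 3.58.1 (R 4.3.3, robust=TRUE, no trend), with NC entered as 0 for every gene. This leaves 2 residual degrees of freedom and assumes that NC varies like the siRNA libraries. P-values were adjusted by Benjamini-Hochberg over all genes (threshold 0.05), and the fit was tested on simulated data. Named were every basement membrane gene, the 6 other collagens and 6 integrins with the largest absolute mean over 4 libraries, the 3 highest and 3 lowest of each in siDhx30 minus siTfam, every chain with a missing value, and up to 4 genes per pathway or marker list; further chains were given after their values were seen. Of the genes this rule names, 3 are not reported here by name, but they count in the medians and counts of their groups. The list for the integrin adhesion complex holds Itgb1bp1, and Sparc, Dcn and Fbn1 are each on 2 lists. The members and lists were chosen with earlier results of these data known. Alternatives left out each siRNA library, used robust=FALSE, kept incomplete genes, centred libraries, blocked on the replicate number, or removed trends with length and GC content of the longest transcript (quadratic in both, with their product).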

Additional observations from a re-analysis of the deposited data

Results flagged for a closer look

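In 4 chains both siDhx30 libraries lay on one side of NC and both siTfam libraries on the other, as they did for 591 of 12088 genes (4.89%). The difference of siDhx30 minus siTfam was 0.84 for Col6a5, 1.44 for Lama4, 0.19 for Lamb1 and -0.26 for Itgb5. The test of the difference itself, limma over all genes with Benjamini-Hochberg adjustment, gave an adjusted p of 0.999 for each. Before adjustment the 95% interval of Col6a5 excluded 0 and those of the other three did not. All 4 pairs of ratios share the NC library, so which side of NC a gene lies on depends on that library, while the difference between the siRNAs does not.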

How the results depend on the processing

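No gene passed in any comparison under any alternative run: the count stayed at 0 without each siRNA library in turn, with robust=FALSE, with incomplete genes kept, after centring, among protein-coding genes alone (added after seeing the data) and with length and GC trends removed. Over these alternatives the smallest limma adjusted p ran from 0.203 to 0.940 in siDhx30 against NC, from 0.195 to 0.738 in siTfam against NC and from 0.490 to 1.00 between the siRNAs. With the replicate number as a block the siDhx30 to siTfam comparison also gave 0 genes (smallest adjusted p = 0.886, and 566 genes at an unadjusted p under 0.05). The labels do not say that the numbers pair libraries, and deviations of same-numbered libraries correlated at 0.25 (Pearson) across genes. At an unadjusted p under 0.05 that comparison gave 921 genes without siTfam replicate 1 and 665 without siDhx30 replicate 1, against 337.

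With 1 siRNA library left out, the median of the basement membrane genes ran from 0.0027 to 0.20 in siDhx30, from -0.21 to -0.05 in siTfam and from 0.22 to 0.37 between the siRNAs. That of the other collagens ran from -0.18 to 0.04, from -0.15 to 0.20 and from -0.21 to 0.16, and that of the integrins from -0.08 to 0.09, from 0.066 to 0.092 and from -0.27 to -0.045. With length and GC trends removed the siTfam median was 0.052 for basement membrane genes, 0.079 for other collagens and 0.20 for integrins, and the cause was not tested. With incomplete genes kept, the siDhx30 median of other collagens was 0.17, as Col16a1 and Col6a2 enter above NC, and the siTfam median of integrins was 0.13, as Itga8 enters above NC. Every gene with a missing value lay above NC where it had one, so these shifts are no result about the groups. In the fit across genes, incomplete genes with too few values gave no p, which left 12346, 12355 and 12310 genes in the 3 comparisons. For the 30 chains named by rule, trend removal moved 8 of 90 values by more than the replicate SD and centring moved 1 of 90; of these, Lama5 in siTfam went from -0.11 to 0.10. By less than that SD, Lamb2 in siTfam went from -0.12 to 0.044 and Lamc1 from -0.016 to 0.060. The unknown depth limits every value, as ratios of few reads cannot be told from ratios of many.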

Other observations

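The 3 genes matched by prefix alone lay between -0.21 and 0.31 in every library. Col4a3bp, which encodes a ceramide transfer protein, lay at 0.18 and -0.21 with siDhx30 and at -0.05 and -0.14 with siTfam. Itgb1bp1, which encodes a protein that binds the Itgb1 tail, lay at 0.21 and 0.31, and at 0.08 and -0.10, and Itgb3bp, which encodes a kinetochore protein also known as CENP-R, at 0.12 and -0.20, and 0.04 and 0.06.

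Of the non-integrin matrix receptors, 11 of 17 listed were complete, and none passed. Both siDhx30 libraries were below NC for 6 (54.5%) and above it for 2 (18.2%), against 34.9% and 32.1% of all genes. Both siTfam libraries were below for 2 (18.2%) and above for 4 (36.4%), against 34.4% and 32.0% of all genes. Gpc1, a glypican, lay at -1.13 and -0.16 with siDhx30 and at -0.83 and -0.32 with siTfam. The hyaluronan receptor gene Cd44 lay at -0.35 and -0.86, and at -1.39 and 0.31, and Sdc1, a syndecan, at -0.38 and -0.0057, and -0.43 and -0.14. Cd47, which binds thrombospondin and associates with integrins, lay at 0.29 and 0.91, and at 0.46 and -0.05.

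Matrix proteases and their inhibitors, 18 complete of 34 listed, were spread over both sides of NC, with medians of 0.05 in siDhx30 and -0.11 in siTfam, and none passed. Mmp15, a membrane-type metalloproteinase, was above NC in every library, at 0.48 and 1.09 with siDhx30 and at 0.67 and 0.95 with siTfam. Mmp17, another membrane-bound metalloproteinase, was below NC in every library, at -0.56 and -0.73, and at -0.52 and -0.53. Mmp9, a gelatinase that cleaves collagen IV, lay at -0.89 and -0.24, and at -1.10 and 0.07.

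Other lists of lineage markers were covered only in part. Of 16 embryonic stem cell markers 5 were found, and Pou5f1, Sox2 and Nanog were not among them; the medians were 0.04 in siDhx30 and -0.12 in siTfam, and Esrrb lay at 0.06, 0.02, 0.85 and 0.02. Of 9 formative or primed epiblast markers 5 were found, with medians of 0.19 and 0.17; Otx2 lay at 0.37 and 0.33 with siDhx30 and at 0.63 and 0.43 with siTfam. Of 9 trophoblast markers 2 were found, with medians of 0.50 and 0.70. Tfap2c lay at -0.18 and 0.08, and at 0.08 and 0.46, and the keratin gene Krt7, also made by other epithelia, was above NC in every library, at 0.73 and 1.38, and at 1.38 and 0.89.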
